A study of Arabidopsis thaliana with 4 samples.

Results

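The chloroplast genes clpP, rpl20 and rps12 were described exon by exon in RNA recovered by immunoprecipitation with an antibody against the HA tag (RIP-seq) from chloroplast stroma of Arabidopsis thaliana. dPPRrbcL libraries came from a transgenic line expressing dPPRrbcL, which the submitters took to be soluble in the chloroplast and whose name carries PPR, the short name of the pentatricopeptide repeat family of organellar RNA-binding proteins. WT libraries came from Col-0 plants, whose stroma was treated with the same antibody and gives the background. Plants of both groups were 2 weeks old, and each group had 2 libraries. The labels do not name the promoter of the transgene or the number of lines, and do not say whether the replicates came from separate plants, so p-values measure the spread between these libraries, which may be technical. The question of the design for RNAs other than rbcL was which of them are recovered with dPPRrbcL. The members were taken from the annotation of the TAIR10.1 chloroplast sequence: 7 exons and 3 introns, 10 of 154 annotated exons and introns (hereafter segments), with the copies of the inverted repeat joined. All 10 passed the filter on low coverage that left 141 segments for testing. The files hold chloroplast positions only, so the purity of the stroma could not be checked against nuclear genes.

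clpP encodes a proteolytic subunit of the ATP-dependent Clp protease of the chloroplast. rpl20 and rps12 encode proteins of the large and the small subunit of the chloroplast ribosome. The introns of clpP and rps12 belong to the group II class, which is removed in plant chloroplasts with the help of nuclear-encoded proteins, PPR proteins among them. The first exon of rps12 lies far from the others, is transcribed separately, and is joined to exon 2 by trans-splicing.

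On the chloroplast genome, all members lie on the minus strand of the single copy region or, for rps12 exons 2 and 3, in the inverted repeat. In the direction of transcription, clpP comes first, with exon 1 at 71812 to 71882, exon 2 at 70653 to 70944 and exon 3 at 69910 to 70137. rps12 exon 1 follows at 69611 to 69724 and rpl20, a gene of 1 exon, at 68512 to 68865. Exon 2 of rps12 lies at 98562 to 98793 and exon 3 at 97999 to 98024, with the other copies at 139856 to 140087 and 140625 to 140650 on the plus strand. The introns are 867 nt (clpP intron 1), 515 nt (clpP intron 2) and 537 nt (rps12 intron 2) long. The short exons that open and close the rps12 reading frame are shown because their coverage is set against that of exon 2. The capitals mark the start and the stop codon, and positions follow TAIR10.1.
rps12 exon 1: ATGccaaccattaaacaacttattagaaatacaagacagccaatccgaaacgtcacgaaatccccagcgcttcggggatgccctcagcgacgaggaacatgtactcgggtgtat
rps12 exon 3: aatatggggtcaaaaagccaaaaTAA

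The annotated borders between exon and intron are shown with 15 bases on each side, exon bases in lower case and intron bases in capitals. In the trans-spliced intron of rps12 the 5′ border follows exon 1 and the 3′ border precedes exon 2, on different transcripts.
clpP intron 1, 5′ border: ttgggttgacatataGTGCGACTTGTCAGA
clpP intron 1, 3′ border: AAAAATTATCCTAATcaaccgactttatcg
clpP intron 2, 5′ border: gcattccctcacgctTGGCGCCAATGAGTT
clpP intron 2, 3′ border: TTCTATTATATCATCagggtaatgatccat
rps12 intron 1 (trans), 5′ border: tgtactcgggtgtatGTGCGACTCGTTTAG
rps12 intron 1 (trans), 3′ border: TCTGTCAACTTTTCCactatcacccccaaa
rps12 intron 2, 5′ border: aacaagggcgttctaGTGCGTTGTAGATTC
rps12 intron 2, 3′ border: CGAGATCCACCCTACaatatggggtcaaaa
An intron start of GTGCG or GTGTG, read on the transcribed strand only, was found in 13 of the 20 contiguous introns annotated in the genome (65.0%). Of the 3 contiguous introns of clpP and rps12, 2 had it. The annotated start of clpP intron 2, TGGCG, did not match.

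Coverage was given in reads per nucleotide, so segments of unequal length share a unit. How reads across exon borders were mapped is not given, which limits the comparison for short exons. The summed coverage of the whole genome was 1879536484 and 1971451856 nt in the dPPRrbcL libraries, and 1995360151 and 1602408234 nt in the WT libraries. Most of it was rRNA: what lay outside rRNA and tRNA genes made up 8.43% and 7.42% of it in dPPRrbcL, against 0.870% and 1.23% in WT. The mean coverage outside these genes was 1172 and 1082 reads per nucleotide in dPPRrbcL, against 128 and 145 in WT, and levels below are percentages of it. Of this remainder, 11.9% and 12.3% in dPPRrbcL, against 48.6% and 45.0% in WT, lay in the spacers and 500 nt flanks of the rRNA operon, which lowers every WT percentage. Ratios between segments of 1 library are free of this and are given first.

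The contiguous intron of rps12 stood higher against its exons in dPPRrbcL than in WT, and so did exon 1 against exon 2. Both introns of clpP stood lower against their exons in dPPRrbcL. Among the 38 segment ratios that passed the coverage filter, the rps12 changes ranked 1 and 2 from the top. These rps12 ratios and the clpP intron ratios thus moved in opposite directions. The remaining rps12 ratio, exon 2 against exon 3, had a negative difference (-0.36), and the median of the 38 ratios was -0.31. The background was 7.89% of ratios higher and 21.1% lower (limma, Benjamini-Hochberg adjusted p under 0.05). Of the 7 ratios of clpP and rps12, 2 were higher and 2 lower.

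rps12 intron 2 had 509 and 506 reads per nucleotide in dPPRrbcL, against 38.2 and 42.9 in WT, summed over both repeat copies. rps12 exon 2, which carries most of the reading frame, had 2597 and 2658 reads per nucleotide in dPPRrbcL, against 617 and 614 in WT. Exon 3 had 997 and 1117 in dPPRrbcL, against 186 and 199 in WT. In these unscaled values dPPRrbcL was above WT in each segment, by a wider margin in the intron than in the exons. Scaled to the library total, 97.9% of the 141 segments were higher in dPPRrbcL. As a share of non-rRNA, non-tRNA coverage, exons 2 and 3 were lower in dPPRrbcL (log2 changes -0.95 and -0.58). The ratio of the intron to its flanking exons was 0.209 and 0.202 in dPPRrbcL, against 0.0666 and 0.0750 in WT. The difference of the log2 ratios was 1.54 (SE 0.16, limma adjusted p = 0.0106). Among the 19 introns tested, 2 ratios were higher in dPPRrbcL and 5 lower, with a median difference of -0.18. The intron called higher beside that of rps12 was trnK intron 1.

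rps12 exon 1 had 826 and 806 reads per nucleotide in dPPRrbcL, against 79.7 and 52.6 in WT. Its ratio to the summed coverage of exon 2 was 0.318 and 0.303 in dPPRrbcL, against 0.129 and 0.0857 in WT. In each library, then, the trans-spliced first exon was covered less deeply than the exon it is joined to, and the gap was wider in WT. The difference of the log2 ratios was 1.56 (SE 0.24, limma adjusted p = 0.0136), the highest of the 38. The change of exon 1 and that of the intron share exon 2 in the denominator and are not independent. When any 1 library was left out, the differences were 1.26 to 1.86 for exon 1 and 1.46 to 1.63 for the intron. Both calls were lost when libraries of unlike replicate number were paired, a setting chosen after seeing the data (limma adjusted p = 0.0856 for each). With the WT spread of exon 1, 79.7 against 52.6, the value of 1.86 is that without WT replicate 1 and 1.26 that without WT replicate 2.

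The ratio of rps12 exon 2 to exon 3 was 2.61 and 2.38 in dPPRrbcL, against 3.32 and 3.08 in WT. It did not pass the threshold (difference of log2 ratios -0.36, SE 0.16, limma adjusted p = 0.126). Exon 3 is 26 nt long.

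**Figure D1:**
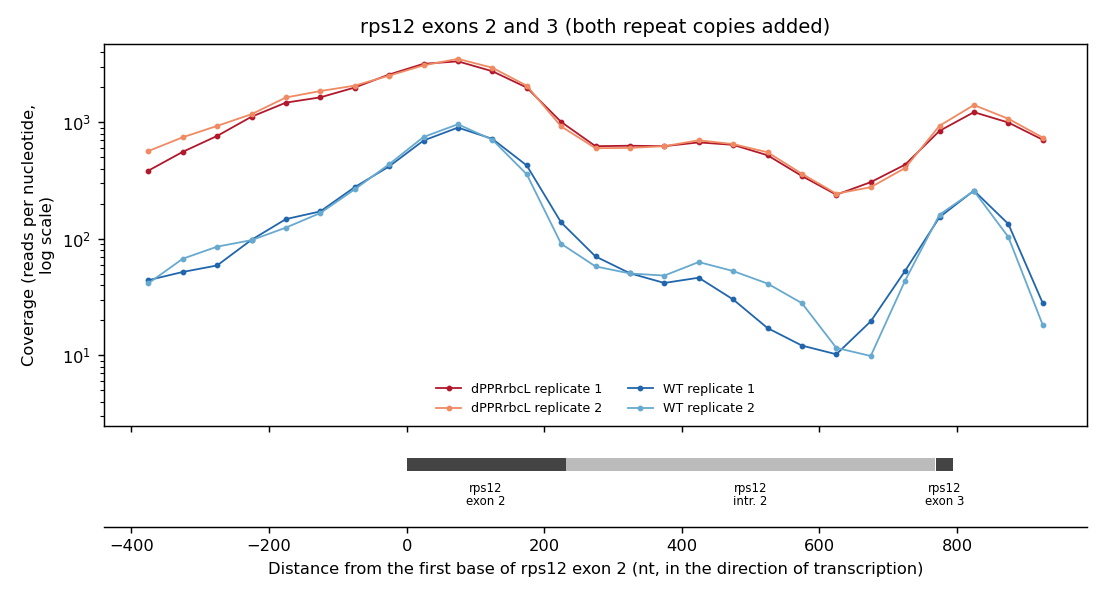
Coverage in reads per nucleotide (log axis) in bins of 50 nt against the distance from the first base of rps12 exon 2, for the 2 dPPRrbcL and the 2 WT libraries, both repeat copies added; black bars are exons and the grey bar is the intron. All libraries peak in exon 2 and again past exon 3, and the trough in the intron is deeper in WT, with 239 and 244 reads per nucleotide in dPPRrbcL in the bin 600 nt downstream, against 10.2 and 11.6 in WT.

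The fall of coverage along rps12 was placed at the borders by 25 nt on each side. At the 3′ end of exon 2 the intron side had 0.528 and 0.514 times the coverage of the exon side in dPPRrbcL, against 0.496 and 0.709 in WT. At the 5′ end of exon 3 it had 0.538 and 0.497 times in dPPRrbcL, against 0.432 and 0.392 in WT. The step at the end of exon 2 overlapped between the groups, and that before exon 3 was deeper in both WT libraries. Coverage in exon 2 was highest 50 to 99 nt from its first base, at 3340 and 3510 reads per nucleotide in dPPRrbcL, against 902 and 963 in WT. At the 5′ end of exon 2 the trans-intron side had 0.905 and 0.918 times the exon coverage in dPPRrbcL, against 0.763 and 0.765 in WT, so coverage ran on into the upstream transcript in every library. At the 3′ end of exon 1 the corresponding values were 0.698 and 0.721 in dPPRrbcL, against 0.596 and 0.658 in WT.

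Of the clpP exons, exon 1 was the least covered in both dPPRrbcL libraries, and exon 3 in both WT libraries. Exon 1 had 196 and 239 reads per nucleotide in dPPRrbcL, against 65.9 and 43.5 in WT. Exon 2 had 658 and 636 in dPPRrbcL, against 52.2 and 70.5 in WT. Exon 3 had 404 and 390 in dPPRrbcL, against 25.4 and 27.5 in WT. Exon 2 was thus the highest exon in both dPPRrbcL libraries and in WT replicate 2, whereas exon 1 was the highest in WT replicate 1. The ratio of exon 1 to exon 2 was 0.298 and 0.376 in dPPRrbcL, against 1.26 and 0.617 in WT. The difference of -1.40 (SE 0.38) missed the threshold (limma adjusted p = 0.0545). It was -1.91 without WT replicate 2, -1.56 without dPPRrbcL replicate 2 and -0.88 without WT replicate 1. The ratio of exon 2 to exon 3 was 1.63 and 1.63 in dPPRrbcL, against 2.06 and 2.56 in WT (difference -0.50, SE 0.18, limma adjusted p = 0.107). Its difference was -0.65 without WT replicate 1 and -0.34 without WT replicate 2. With a minimum coverage of 100 both exon ratios passed, at limma adjusted p-values of 0.00883 for exon 1 to exon 2 and 0.0439 for exon 2 to exon 3. That filter uses the unscaled mean over all libraries. The clpP exons reached it through dPPRrbcL and were below 100 in both WT libraries. Over the alternatives that kept all libraries, the limma adjusted p-values ran up to 0.218 and 0.269, so these passes add no support.

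clpP intron 1 had 130 and 126 reads per nucleotide in dPPRrbcL, against 28.4 and 24.97 in WT. Its ratio to the flanking exons was 0.229 and 0.226 in dPPRrbcL, against 0.518 and 0.383 in WT. clpP intron 2 had 284 and 250 reads per nucleotide in dPPRrbcL, against 41.7 and 43.4 in WT. Its ratio to the flanking exons was 0.520 and 0.473 in dPPRrbcL, against 1.03 and 0.840 in WT. In WT, then, the mean of intron 2 was near the pooled mean of its exons. It lay below exon 2 (52.2 and 70.5) and above exon 3 (25.4 and 27.5). The differences of the log2 ratios were -0.97 for intron 1 (SE 0.20, limma adjusted p = 0.0298) and -0.91 for intron 2 (SE 0.18, limma adjusted p = 0.0265). Without dPPRrbcL replicate 1 they were -0.98 and -0.98 (adjusted p = 0.216 for each), and without dPPRrbcL replicate 2 they were -0.96 (adjusted p = 0.238) and -0.84 (adjusted p = 0.314). The call of intron 1 was also lost with the replicate number as a block (limma adjusted p = 0.0674), and both were lost with the median in place of the mean coverage of a segment, at -0.59 and -0.49.

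Inside the clpP introns coverage was unevenly spread in both groups, and more so in WT. The 5′ part of intron 1, up to its midpoint, had 115 and 113 reads per nucleotide in dPPRrbcL, against 39.4 and 33.9 in WT. The 3′ part had 146 and 140 in dPPRrbcL, against 17.5 and 16.1 in WT. The 5′ part was therefore 0.789 and 0.806 times as deeply covered as the 3′ part in dPPRrbcL, against 2.25 and 2.11 times in WT. In intron 2 the 5′ part was covered 2.12 and 1.75 times as deeply as the 3′ part in dPPRrbcL, against 4.38 and 4.57 times in WT. Intron 1 thus leaned towards its 3′ part in dPPRrbcL and towards its 5′ part in WT. Intron 2 leaned towards its 5′ part in all libraries, and further in WT. The parts of rps12 intron 2 differed less between the groups, with 1.66 and 1.64 in dPPRrbcL, against 1.86 and 1.80 in WT. These values describe 1 division of each intron and were not tested.

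**Figure D2:**
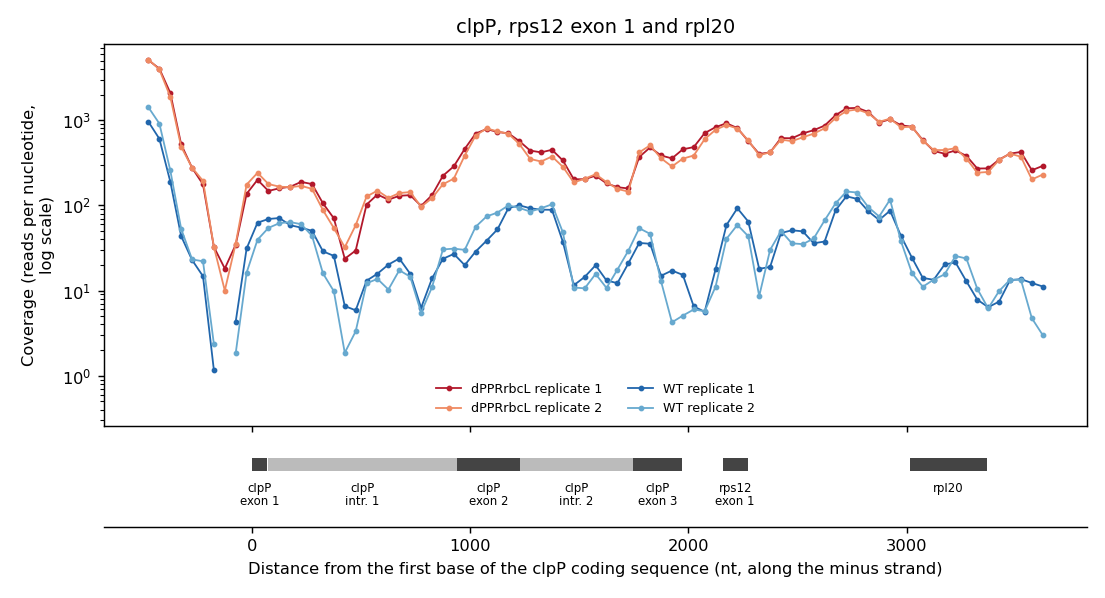
Coverage in reads per nucleotide (log axis) in bins of 50 nt against the distance from the first base of the clpP coding sequence along the minus strand, for the 2 dPPRrbcL and the 2 WT libraries; black bars are exons and grey bars introns, and 1 bin upstream of clpP, listed at 0 in both WT libraries, has no WT point. In the bin 1450 nt downstream, within intron 2, coverage is 203 and 186 in dPPRrbcL, against 11.5 and 10.9 in WT, after a WT plateau of 84.5 to 103 reads per nucleotide.

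The profile showed where within clpP the WT libraries were relatively high. In the bins from 50 to 299 nt downstream of the start, dPPRrbcL coverage lay between 148 and 189 reads per nucleotide and WT coverage between 43.9 and 71.0. In the bin from 400 to 449 nt it was down to 23.6 and 32.2 in dPPRrbcL, against 6.58 and 1.86 in WT. From the end of exon 2 into intron 2, dPPRrbcL coverage decreased, with 702 and 693 in the bin from 1150 to 1199 nt and 440 and 351 in that from 1250 to 1299 nt. WT coverage was level there, with 92.7 and 99.9 in the first of these bins and 92.6 and 84.5 in the other. The bin from 1350 to 1399 nt had 449 and 375 in dPPRrbcL, against 88.7 and 103 in WT. The bin from 1450 to 1499 nt had 203 and 186 in dPPRrbcL, against 11.5 and 10.9 in WT. At the 3′ end of exon 1 the intron side had 0.610 and 0.583 times the exon coverage in dPPRrbcL, against 0.904 and 1.04 in WT. At the 5′ end of exon 2 the intron side had 0.734 and 0.702 times in dPPRrbcL, against 1.09 and 1.45 in WT. A step down into intron 1 was therefore seen in dPPRrbcL at both of its borders, and in WT at neither, apart from the slight fall of WT replicate 1 after exon 1. At the 3′ end of exon 2 the intron side was lower in all libraries, at 0.716 and 0.632 times in dPPRrbcL, against 0.764 and 0.711 in WT. At the 5′ end of exon 3 it was also lower in all libraries, at 0.415 and 0.363 times in dPPRrbcL, against 0.658 and 0.559 in WT.

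**Figure D3:**
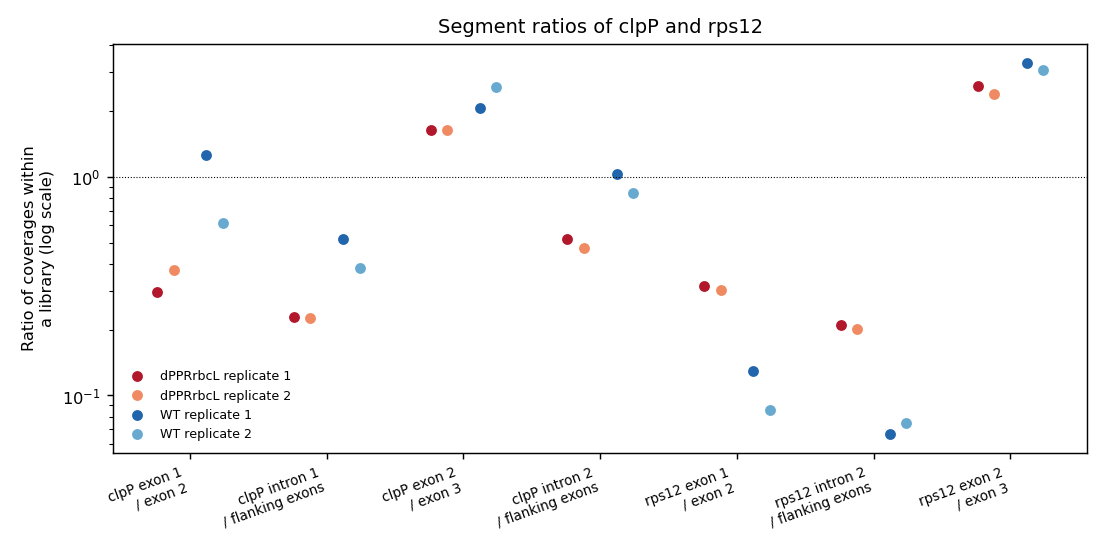
Ratio of the coverages of 2 segments within each library (log axis) for the 7 ratios of clpP and rps12, 1 point per library, dPPRrbcL left of WT; the dotted line marks equal coverage. The clpP intron ratios are lower in dPPRrbcL (0.226 to 0.520) than in WT (0.383 to 1.03), and the rps12 intron ratio is higher (0.202 and 0.209 against 0.0666 and 0.0750).

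Of the 38 ratios, petB exon 1 against exon 2 was the lowest (-1.80, SE 0.24, limma adjusted p = 0.0128), followed by the petB intron (-1.42, adjusted p = 0.0136). petB encodes cytochrome b6 of the thylakoid electron transport chain. The intron of atpF, a gene for a subunit of the chloroplast ATP synthase, was also lower against its exons (-1.28, adjusted p = 0.0128). The falls of both clpP introns were smaller than these. The median of all introns was 0.886 times the flanking exons in dPPRrbcL, against 1.10 times in WT.

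**Figure D4:**
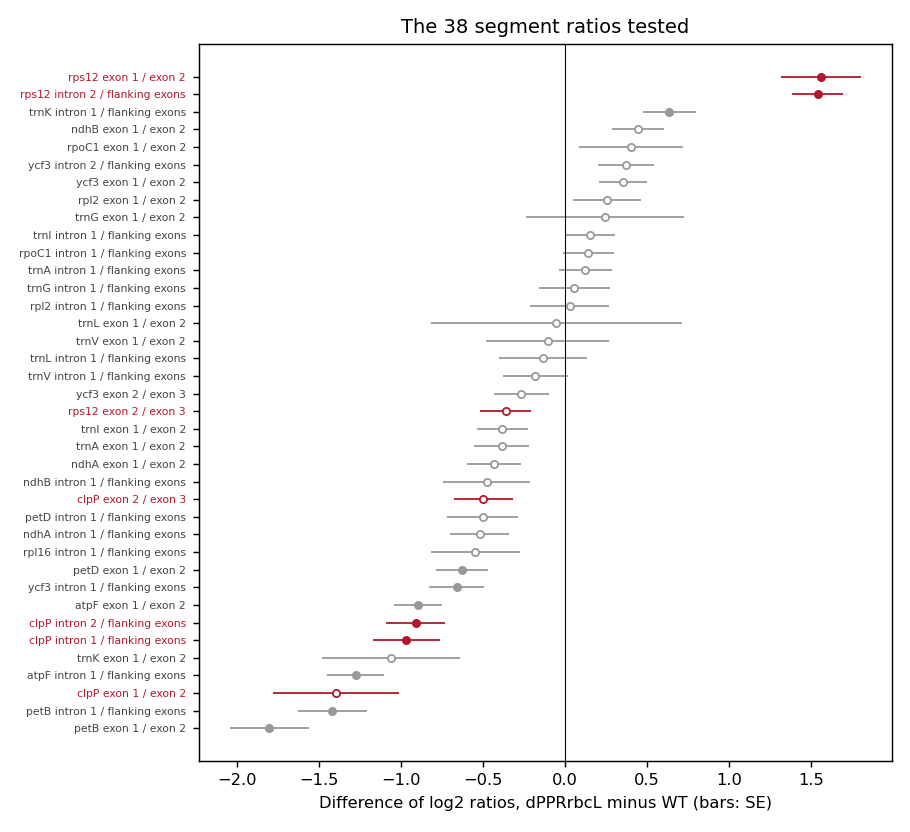
Difference of the log2 segment ratios, dPPRrbcL minus WT, with its SE, for all 38 ratios tested; red marks clpP and rps12, and filled points have a limma adjusted p under 0.05. The rps12 exon 1 and intron ratios are at the top, at 1.56 and 1.54, and the clpP intron ratios are in the lower part, at -0.97 and -0.91.

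The spacers between the genes were covered as well. The spacer of 185 nt from clpP to rps12 exon 1 had 648 and 561 reads per nucleotide in dPPRrbcL, against 11.8 and 7.72 in WT. It was 0.785 and 0.696 times as deeply covered as rps12 exon 1 in dPPRrbcL, against 0.148 and 0.147 times in WT. Coverage was thus nearly continuous from clpP into rps12 in dPPRrbcL and dropped between them in WT. Against clpP exon 3 the spacer ratio was 1.60 and 1.44 in dPPRrbcL, against 0.464 and 0.281 in WT. On the scale given above, the spacer was 7.40 times higher in dPPRrbcL. It had rank 9 of 93 spacers of at least 50 nt with a mean of at least 10 reads per nucleotide. The median log2 ratio of these spacers was 1.24. That mean is unscaled and taken over all 4 libraries, so spacers low in WT could enter through dPPRrbcL. The rank and the median hold for that selection only. Spacers were not part of the limma fit, and with 2 libraries a group an exact two-sided permutation test cannot give a p below 0.333.

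The spacer of 745 nt from rps12 exon 1 to rpl20 holds the 5′ part of the trans-spliced intron. It had 869 and 830 reads per nucleotide in dPPRrbcL, against 61.3 and 67.7 in WT. It was covered more deeply than rpl20 itself in every library, 1.94 and 1.85 times in dPPRrbcL, against 4.03 and 4.21 times in WT. Against rps12 exon 1 the ratio was 1.05 and 1.03 in dPPRrbcL, against 0.769 and 1.29 in WT, where the groups overlapped. Coverage in it peaked 2700 to 2799 nt downstream of the clpP start, at 1380 and 1396 reads per nucleotide in adjoining bins of dPPRrbcL replicate 1 and 1283 and 1338 in replicate 2, and at 128 and 119 in WT replicate 1 and 146 and 141 in WT replicate 2.

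rpl20 had 448 and 450 reads per nucleotide in dPPRrbcL, against 15.2 and 16.1 in WT. It was the least covered member in both WT libraries, and stood above both clpP introns, clpP exon 1 and clpP exon 3 in both dPPRrbcL libraries. Coverage fell along the gene in dPPRrbcL, where the bin over its start had 839 and 838 and a bin near its end 271 and 242. In WT the same bins had 24.4 and 16.2, and 7.82 and 10.5. The spacer beyond its stop codon, towards the converging gene rps18, had 338 and 305 reads per nucleotide in dPPRrbcL, against 10.9 and 8.27 in WT. The files do not separate strands, so reads of rpl20 and rps18 cannot be told apart there. The same holds upstream of clpP: the spacer towards the diverging gene psbB had 1143 and 1121 in dPPRrbcL, against 167 and 242 in WT, most of it next to psbB. In the bin from 200 to 151 nt upstream of the clpP start it was down to 32.5 and 32.6 in dPPRrbcL, against 1.16 and 2.36 in WT.

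As a share of non-rRNA, non-tRNA coverage, rpl20 was the member with the highest log2 change in dPPRrbcL, and the rps12 exons of the repeat and the 5′ part of clpP were lower. rpl20 stood at 39.9% ± 2.35 in dPPRrbcL, against 11.5% ± 0.56 in WT (SD, n = 2 each), 1.72 higher on the log2 scale with an SE of 0.11 (limma adjusted p = 0.000866). The log2 scale includes a pseudocount of 1% of the scaling mean, 10.8 to 11.7 reads per nucleotide in dPPRrbcL, against 1.28 to 1.45 in WT, and so understates low segments. Of the 10 members, 3 were higher and 5 lower, where the background was 58.9% of the 141 segments higher and 16.3% lower (limma, Benjamini-Hochberg adjusted p under 0.05). The median segment rose by 0.81, so rpl20 exceeded it by 0.91. For scale, rbcL had a log2 change of 1.96 and rank 16 of 141, and rpl20 had rank 23.

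clpP exon 3 rose by 0.83 (SE 0.10, limma adjusted p = 0.00289), at 35.3% ± 1.10 in dPPRrbcL, against 19.3% ± 0.57 in WT, which is 0.03 above the median segment. rps12 intron 2 rose by 0.59 (SE 0.10, limma adjusted p = 0.00769), at 45.1% ± 2.35 in dPPRrbcL, against 29.6% ± 0.12 in WT. That rise was smaller than that of the median segment (difference -0.22), at rank 83 of the segments tested. rps12 exon 1 was at 72.5% ± 2.84 in dPPRrbcL, against 49.2% ± 18.3 in WT, and did not pass (log2 change 0.60, limma adjusted p = 0.119). Without WT replicate 1 its change was 0.98, and without WT replicate 2 it was 0.22. clpP exon 2 was at 57.5% ± 1.83 in dPPRrbcL, against 44.6% ± 5.57 in WT (log2 change 0.36, limma adjusted p = 0.0646). Its change was 0.49 without WT replicate 2 and 0.24 without WT replicate 1.

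rps12 exon 2 fell by 0.95 on the log2 scale (SE 0.13, limma adjusted p = 0.00366), at 234% ± 17.0 in dPPRrbcL, against 451% ± 40.5 in WT. rps12 exon 3 fell by 0.58 (SE 0.14, limma adjusted p = 0.0195), at 94.2% ± 12.9 in dPPRrbcL, against 141% ± 5.18 in WT. clpP exon 1 fell by 0.99 (SE 0.31, limma adjusted p = 0.0432), at 19.4% ± 3.76 in dPPRrbcL, against 40.6% ± 15.1 in WT. Its change was -0.61 without WT replicate 1 and -1.37 without WT replicate 2. clpP intron 1 fell by 0.73 (adjusted p = 0.0146) and clpP intron 2 by 0.38 (adjusted p = 0.0314). With the median in place of the mean coverage of a segment, clpP intron 2 was at 0.27 and did not pass. The calls of clpP exon 1, clpP intron 2 and rps12 exon 3 were lost with the replicate block, at limma adjusted p-values of 0.112, 0.0578 and 0.0562. That of clpP exon 1 was also lost with a pseudocount of 0.1% (adjusted p = 0.0584) and with no coverage filter (adjusted p = 0.0521). Without either dPPRrbcL library the calls of rps12 exon 3, both clpP introns, clpP exon 1 and rps12 intron 2 were lost, while rps12 exon 2 and rpl20 kept theirs. clpP exon 3 lost its call without dPPRrbcL replicate 2 (0.80, adjusted p = 0.0506).

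**Figure D5:**
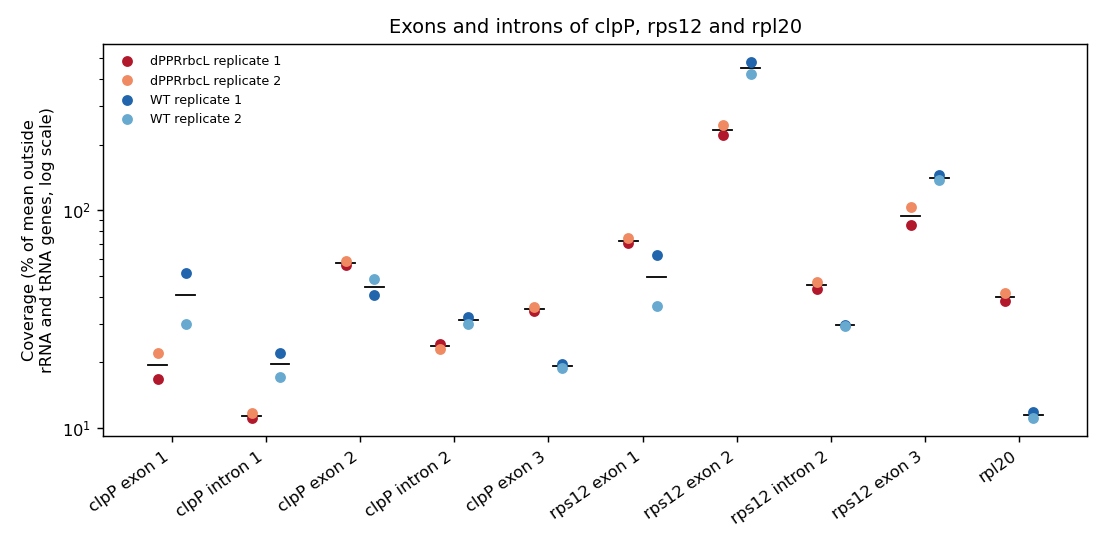
Coverage of each exon and intron of clpP, rps12 and rpl20 as a percentage of the mean coverage outside rRNA and tRNA genes (log axis), 1 point per library and a bar at the group mean, dPPRrbcL left of WT. rps12 exon 2 is the highest in both groups, at 234% in dPPRrbcL, against 451% in WT, and rpl20 shows a wide gap, at 39.9% in dPPRrbcL, against 11.5% in WT.

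These directions depended on the scaling. With the median ratio over segments, which put the median segment at 0.06, rpl20 was higher (0.97, limma adjusted p = 0.00346). Of the 10 members 1 was then higher and 5 lower, against 29.8% and 31.2% of all segments. The 5 were rps12 exon 2 (-1.74), rps12 exon 3 (-1.37) and clpP exon 1 (-1.77), intron 1 (-1.49) and intron 2 (-1.16). rps12 exon 1, rps12 intron 2 and clpP exon 2 changed sign, to -0.18, -0.18 and -0.42, and none of these passed. clpP exon 3 lost its call, at 0.07 (limma adjusted p = 0.565), and did so too when scaled outside the rRNA operon, at 0.14 (adjusted p = 0.345). Scaled to the library total, where 97.9% of segments were higher and 0 lower (0 also at an unadjusted p under 0.05), all 10 members were higher, from 0.72 for clpP intron 1 to 2.27 for rps12 exon 1. The pseudocount was then 1% of the whole-genome mean, 129 and 104 reads per nucleotide in WT. Apart from rps12 exons 2 and 3, every member had less WT coverage than that. The sizes and the order of these changes therefore depend on the pseudocount.

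In order of level, with the repeat copies added, rps12 exon 2 was first, followed by exon 3 and then exon 1, in both groups. In dPPRrbcL clpP exon 2, rps12 intron 2, rpl20, clpP exon 3, clpP intron 2, clpP exon 1 and clpP intron 1 followed, with no overlap between neighbours over the 2 libraries. In WT, rps12 exon 1, clpP exon 2, clpP exon 1 and clpP intron 2 overlapped from each to the next, as did clpP intron 1 and clpP exon 3, and rpl20 was last. This order depends on adding the copies. Per copy, exon 3 had 477 to 584 reads per nucleotide in dPPRrbcL, below rps12 exon 1 (826 and 806) and clpP exon 2 (658 and 636). In WT exon 3 stayed above exon 1. Per copy, rps12 intron 2 had 248 to 262 in dPPRrbcL, below rpl20 (448 and 450). In WT the intron had 17.4 to 22.6, below clpP exon 3 (25.4 and 27.5). The repeat copies were close for rps12 exon 2, which had 1297 and 1312 reads per nucleotide in one copy and 1300 and 1346 in the other in dPPRrbcL. In WT it had 296 and 286 in one copy and 320.5 and 328 in the other. Exon 3 had 477 and 584 in the copy at 97999 and 520.2 and 533 in that at 140625 in dPPRrbcL, against 96.3 and 86.6 and then 89.3 and 113 in WT. With the copies tested apart, exon 3 at 97999 did not pass (-0.50, limma adjusted p = 0.0796), and exon 3 at 140625 did (-0.64, adjusted p = 0.00917). The copies share their sequence, so this split shows how reads were placed and not which copy was transcribed.

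Other ribosomal protein genes were set beside rpl20 and rps12. Of 13 coding exons tested of small subunit genes (15 annotated), 9 were higher and 2 lower, and the 2 lower ones were rps12 exons 2 and 3. Of 11 coding exons of large subunit genes, 9 were higher and 0 lower by limma, and none of the 11 had a negative log2 change, although rpl2 exon 2 (-0.37) and rpl23 (-0.24) did with the median ratio. Their median log2 changes were 1.25 and 1.52, beside 1.01 for all 92 coding exons tested, of which 69 were higher and 4 lower. Among small subunit genes rps15 had a log2 change of 2.29, and the large subunit genes with the highest values were rpl14 (2.06) and rpl20. rps15 had 65.7 and 52.5 reads per nucleotide in dPPRrbcL, against 0.779 and 0 in WT, and rpl14 had 122 and 142 in dPPRrbcL, against 3.76 and 1.98 in WT. Both passed the coverage filter through dPPRrbcL, where they were high, so their place in the lists rests on very low WT coverage. The lowest large subunit exons were rpl2 exon 2 (0.41, limma adjusted p = 0.0774) and rpl23 (0.51, adjusted p = 0.019). With the median ratio, 6 small subunit exons were higher and 3 lower, and 5 large subunit exons were higher and 0 lower, beside 34 higher and 17 lower of all 92. The medians were then 0.59 and 0.92, beside 0.26 for all coding exons.

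Among 25 coding exons tested of protein-coding genes with introns, 14 were higher and 4 lower, with a median of 0.75. The highest were atpF exon 2 (2.60) and ycf3 exon 1 (1.89), and the lowest were petB exon 1 (-1.38) and clpP exon 1. ycf3 encodes an assembly factor of photosystem I. With the median ratio 8 were higher and 6 lower, with a median of -0.02, beside the 34 higher and 17 lower of all 92 coding exons.

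Likeness was measured as the Euclidean distance between mean-centred log2 coverages over the 4 libraries, among coding exons of other genes. Nearest to rpl20 were rps14 (0.094), ycf3 exon 3 (0.139) and ycf3 exon 2 (0.181), against a median distance of 0.882 over 91 exons. Nearest to clpP exon 3 were ndhJ (0.101), psbK (0.154) and ndhA exon 2 (0.164), against a median of 0.613 over 89 exons. Nearest to rps12 exon 1 were psaC (0.339), rpl2 exon 1 (0.381) and rps7 (0.421), against a median of 0.930. Nearest to rps12 exon 2 were clpP exon 1 (0.439), petB exon 1 (0.464) and psbB (0.713), against a median of 2.05. psbB, which encodes the CP47 antenna protein of photosystem II, starts next to clpP on the other strand.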

How the data were processed

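RNA-seq libraries of HA immunoprecipitates from stroma were used, 2 for dPPRrbcL and 2 for WT, prepared from 50 ng of RNA each, per the labels' protocols. The deposited tables give reads per nucleotide at each of 154478 chloroplast positions, per the file headers, a coverage signal with no further normalization seen in the values. Read mapper, settings, strand and treatment of repeated sequence are not given in the sources used here.

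Positions were joined to the TAIR10.1 annotation, whose chloroplast sequence has the same length, and the copies of the inverted repeat were added. Mean coverage per exon or intron was divided by the mean outside rRNA and tRNA genes. Segments with a mean of at least 10 reads per nucleotide were tested with limma 3.58.1 in R 4.3.3 on log2 values with a pseudocount of 1% of that mean, with Benjamini-Hochberg adjustment over all segments and a threshold of 0.05. Ratios of segments within a library were tested likewise, without a pseudocount. Tables and plots used Python 3.11.15, numpy 2.4.6, pandas 2.3.3 and matplotlib 3.10.9. The scripts were tested on simulated data.

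Every exon, intron and adjoining spacer of the 3 genes is named, with the 2 highest and 2 lowest coding exons of each gene list (1 of them is not reported here) and the 3 exons most like each of 4 members. rbcL is named as a scale, and the petB, atpF and trnK ratios were named after their values were seen. The members and lists were chosen with earlier results of these data known. Alternatives covered scaling, pseudocount, filter, repeat copies, trimming, median coverage, a replicate block and each library left out. Sequences are from the RefSeq TAIR10.1 genome. Coverage is not a count of independent reads, so no counting intervals are given.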

Additional observations from a re-analysis of the deposited data

How the results depend on the processing

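rpl20 kept its direction under all 20 alternatives for segments, at 0.97 to 2.02, and passed the threshold in those that kept all libraries. The 2.02 was that scaled to the library total, where 97.9% of segments were higher and the median segment was at 1.64. Alternatives that altered only the test, the filter or the joining of repeat copies left the change of rpl20 at 1.72. The number of segments called higher, 83, was 138 scaled to the library total, 42 with the median ratio, and, among alternatives chosen after seeing the data, 42 scaled outside the rRNA operon, 35 with the median ratio and replicate block and 39 with the median ratio and no pseudocount. The number lower, 23, was 0 (0 also at an unadjusted p under 0.05 by limma), 44, 40, 38 and 44 in the same order. Leaving out a library gave 60 to 92 higher and 12 to 29 lower (12 and 13 without dPPRrbcL replicates 1 and 2). Changes of sign with the median ratio were -0.18 for rps12 exon 1, -0.42 for clpP exon 2 and -0.18 for rps12 intron 2, the same with the block added, and -0.18, -0.42 and -0.19 without a pseudocount. Scaled outside the operon they were -0.11, -0.35 and -0.12. Scaled to the library total the signs changed for clpP intron 2 (1.20), clpP intron 1 (0.72), clpP exon 1 (0.90), rps12 exon 3 (1.83) and rps12 exon 2 (1.81), and clpP intron 2 was 0.27 with median coverage. Beyond the scaling itself, the cause was not tested.

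Of the ratios, 3 were higher and 8 lower. Median coverage left 2 lower, with -0.59 for clpP intron 1 (adjusted p = 0.451) and -0.49 for clpP intron 2 (adjusted p = 0.269). Leaving out a library gave 2 to 9 higher (9 without WT replicate 1, 5 without WT replicate 2) and 1 to 16 lower (1 and 3 without dPPRrbcL replicates 1 and 2, 16 without WT replicate 2), with 1.26 to 1.86 for rps12 exon 1 against exon 2, 1.46 to 1.63 for rps12 intron 2, -1.18 to -0.75 for clpP intron 1 and -1.06 to -0.76 for clpP intron 2. A lone library was assumed to vary like the other group. The replicate block gave 75 segments higher and 19 lower, and 2 ratios higher and 5 lower, with clpP intron 1 at -0.97 no longer called. Deviations of same-numbered libraries correlated at -0.13 over segments and -0.19 over ratios. With 2 libraries a group this compares 1 deviation per group, so it cannot decide whether libraries of the same number were prepared together. A crossed pairing, chosen after seeing the data, gave 88 segments higher and 25 lower, and 0 ratios higher and 0 lower by limma (3 and 9 at an unadjusted p under 0.05), with unchanged differences of 1.56, 1.54, -0.97 and -0.91. WT coverage limits what can be said of low segments: those near the pseudocount, 1.28 to 1.45 reads per nucleotide in WT, have an understated change. Scaled to the library total the pseudocount was 129 and 104 in WT, above every member there but rps12 exons 2 and 3.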
